A study of Mus musculus with 8 samples.

Results

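Transcripts of the mitochondrial genome were described in RNA-seq libraries of mouse embryonic stem (ES) cells. The genes were all those whose symbol begins with mt-, which gave 37 of the 55291 gene symbols in the count tables. They comprised 13 mRNAs, 2 rRNAs and 22 tRNAs, and all 37 had an entry on the mitochondrial chromosome (chrM) in GENCODE M21 (GRCm38). The cells were of the edited lines DHX35-dTAG and GPATCH1-dTAG, in which the gene named carries a degron, a tag that lets the compound dTAG-13 direct the protein to degradation. DHX35 is a helicase and GPATCH1 a G-patch protein, and both act in spliceosome quality control in the nucleus. Each line was given either the solvent DMSO or dTAG-13 at 200 nM, for 4 h. This made 4 groups, and each held 2 libraries. The labels name the cells as E14, and the growth protocol mentions R1 cells. The cells were grown from picked colonies and the labels do not say which clone was sequenced, so the tag and the clone cannot be told apart in a difference between lines. No untagged cells treated with dTAG-13 were analysed here. Nothing in the labels says that the replicates were separate cultures, so the p-values below measure only the spread between these libraries.

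The mitochondrial genome is a small circle of DNA that is transcribed from both strands into long RNAs. In most places tRNAs lie between the mRNAs and rRNAs, and cutting out the tRNAs releases the other transcripts. RNA copied from the heavy strand holds both rRNAs, most tRNAs and every mRNA except mt-Nd6, which is copied from the light strand together with the remaining tRNAs. Its mRNAs code for subunits of complexes I, III and IV of the respiratory chain and of the ATP synthase. Among the genes described here, 12 mRNAs, both rRNAs and 14 tRNAs are transcribed from the heavy strand, and 1 mRNA and 8 tRNAs from the light strand.

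The counts added up to between 12014203 and 14994173 in the 8 libraries. Residual nuclear rRNA (Gm23935 and CT010467.1) took from 1.27% to 20.9% of them, although rRNA had been removed before library preparation. All 8 ES cell markers examined were present at 206 CPM (counts scaled to the library total) or more in every library. The summed CPM of marker lists for fibroblasts, endoderm, mesoderm and neural cells was at most 20.9. dTAG-13 acts on the protein, so the mRNA of a target does not check the depletion. Dhx35 mRNA was between 49.5 and 88.3 CPM in all libraries, and Gpatch1 mRNA was between 20.3 and 27.2 CPM in DHX35-dTAG cells and between 5.84 and 7.71 in GPATCH1-dTAG cells. DHX35-dTAG DMSO replicate 1 was unlike the other 7 libraries. Among the 16371 genes tested, its CPM lay below all of the others in 15.1% and above all of them in 32.6%. The main results that rest on this library are therefore given with and without it. Some fits with other settings, and those of a list of nuclear genes below, were run only with it. Here a share or CPM is the gene's counts over all counts of the library, and an interval given with it is the exact 95% binomial interval, which covers counting error only.

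Mitochondrial RNA took 0.893% of the counts in DHX35-dTAG DMSO replicate 1 and 1.58% in replicate 2. In the same line, it took 1.30% and 1.82% in dTAG-13. GPATCH1-dTAG cells had 1.81% and 1.88% in DMSO and 1.27% and 1.81% in dTAG-13. The lowest share was thus in DHX35-dTAG DMSO replicate 1, and the other 7 libraries lay within a 1.27% to 1.88% range. Nearly all of it came from mRNAs and rRNAs. In bulk RNA, fewer mitochondria, fewer mitochondrial transcripts and more RNA of other kinds cannot be told apart in such a share.

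Most tRNAs were barely counted. Of the 22, 8 had no count in any library and 10 others had a mean under 10 counts, with a highest count of 12. A gene with no count could still have a CPM of up to 0.307 in the least deep library, by the exact interval. The 4 tRNAs with a mean of at least 10 counts were mt-Tq, mt-Tp, mt-Tw and mt-Tm. They are shown because they are the tRNAs whose values are given below, read from GENCODE M21 transcripts with the anticodon in capitals. They carry glutamine, proline, tryptophan and methionine in that order, at chrM:3772-3842 and chrM:15356-15422 on the minus strand, which is the RNA copied from the light strand, and at chrM:4950-5016 and chrM:3845-3913 on the plus strand.
mt-Tq: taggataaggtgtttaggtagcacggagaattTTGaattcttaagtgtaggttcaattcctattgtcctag
mt-Tp: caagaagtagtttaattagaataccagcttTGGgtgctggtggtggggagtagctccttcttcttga
mt-Tw: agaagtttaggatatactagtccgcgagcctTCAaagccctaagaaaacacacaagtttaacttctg
mt-Tm: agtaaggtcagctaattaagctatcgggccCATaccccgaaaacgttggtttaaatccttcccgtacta

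The nuclear genome holds copies of mitochondrial DNA, some of them identical over long stretches. By the rule of at least 90% identity over at least 80% of the copy's transcript, 15 annotated nuclear genes in the tables were copies of mitochondrial genes. Of these, 7 form a block on chromosome 1 at chr1:24611535-24616197, on the minus strand, which matches chrM:6390-11042. Positions along the block and along chrM ran in step to within 1 base over 4653 bases of the mitochondrial genome. The stretch of chrM that it spans contains mt-Co2, mt-Atp8, mt-Atp6, mt-Co3, mt-Nd3 and mt-Nd4l, and parts of mt-Co1 and mt-Nd4. A copy was read for each of these except mt-Atp8, of whose 204 bases only the last 43, which overlap mt-Atp6, lie in an annotated copy, Gm10925. The first 90 bases of mt-Co2 (chrM:7013-7102) and of its copy Gm28661 (chr1:24615476-24615565) are shown, with the sense strand written and capitals kept for bases that differ. Over the 681 bases compared, 0 differed. The same is shown for mt-Nd3 (chrM:9459-9548) and its copy Gm28438 (chr1:24613030-24613119), which differed by 1 base in 345, T3C, counted from the first base of the gene.
mt-Co2: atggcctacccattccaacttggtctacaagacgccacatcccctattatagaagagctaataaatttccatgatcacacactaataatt
Gm28661: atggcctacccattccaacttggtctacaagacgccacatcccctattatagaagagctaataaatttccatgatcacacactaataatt
mt-Nd3: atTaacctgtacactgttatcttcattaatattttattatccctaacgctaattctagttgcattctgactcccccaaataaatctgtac
Gm28438: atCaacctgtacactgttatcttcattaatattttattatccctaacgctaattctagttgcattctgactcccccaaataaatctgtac

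Copies outside the block were less alike. mt-Nd6 and its copy Gm11408 on chromosome 4 were 93.6% identical, with 33 of 519 bases different. mt-Cytb and its copy Gm11410, also on chromosome 4, were 92.9% identical, with 81 of 1142 bases different. Their first aligned 90 bases are shown for comparison with the pairs above, with capitals at the 3 and 5 differing bases. These stretches lie at chrM:13981-14070 and chr4:80003825-80003914 on the minus strand, and at chrM:14146-14235 and chr4:80003990-80004079 on the plus strand.
mt-Nd6: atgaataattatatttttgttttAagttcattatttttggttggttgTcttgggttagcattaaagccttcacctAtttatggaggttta
Gm11408: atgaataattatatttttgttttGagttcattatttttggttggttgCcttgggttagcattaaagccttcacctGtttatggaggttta
mt-Cytb: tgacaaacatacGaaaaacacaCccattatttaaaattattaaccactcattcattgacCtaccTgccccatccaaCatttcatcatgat
Gm11410: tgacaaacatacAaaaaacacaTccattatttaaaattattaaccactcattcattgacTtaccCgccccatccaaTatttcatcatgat

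The 13 mRNAs fell into 2 ranges of counts that did not overlap. The 6 mRNAs inside the block never had more than 50 counts in a library. The other 7, mt-Nd1, mt-Nd2, mt-Co1, mt-Nd4, mt-Nd5, mt-Nd6 and mt-Cytb, had at least 735 counts in every library. Per kilobase of gene, the mean level over the 8 libraries was 3190 CPM for mt-Co1 and 196 CPM for mt-Nd6, which were the highest and lowest of these 7. The order was different in DHX35-dTAG DMSO replicate 1, where mt-Nd6, at 354 CPM per kilobase, was second to mt-Co1 at 781 and the other 5 were between 49.3 and 310. The medians over the other 7 libraries were 3469 for mt-Co1 and 168 for mt-Nd6, again the highest and lowest. Inside the block, the mean over the 8 libraries was 4.22 CPM per kilobase for mt-Co2, 3.16 for mt-Atp6, 2.47 for mt-Co3, 0.964 for mt-Nd4l, 0.515 for mt-Nd3 and 0.412 for mt-Atp8. mt-Co1, mt-Co2 and mt-Co3, which are in different ranges, are subunits of the same enzyme, cytochrome c oxidase.

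The low range coincided with sequence shared with annotated nuclear transcripts. All windows of 100 bases were read from each gene, and a window was called shared if the same bases occurred in a nuclear transcript of GENCODE M21. Shared windows made up 99.5% of those in mt-Co2, 99.5% in mt-Atp6, 99.9% in mt-Co3, 97.6% in mt-Nd3 and 98.5% in mt-Nd4l. They made up 60.8% in mt-Nd4, 30.8% in mt-Co1 and 3.19% in mt-Nd2. None was found in mt-Nd1, mt-Nd5, mt-Nd6, mt-Cytb, mt-Rnr1 or mt-Rnr2. mt-Atp8, at 0 to 2 counts per library, also had none, since the 43 bases it shares with Gm10925 are shorter than a window. The shares depended on the window length. With 50 bases they were 51.1% in mt-Co1, 8.19% in mt-Nd2, 7.61% in mt-Nd5 and 1.04% in mt-Rnr2, between 98.0% and 100% in the 5 mRNAs of the block other than mt-Atp8, and still 0% in mt-Nd1, mt-Nd6, mt-Cytb and mt-Rnr1. All 5 tRNAs inside the block had no count in any library, as did 3 of the 17 outside it. The copies held few counts as well, since the 7 genes of the block together had 85 counts in DHX35-dTAG DMSO replicate 1 and 163 to 255 in the others. How the authors' counting treated reads that match in more than 1 place is not given in the sources used here, and its part in the low counts was not tested. While that is not known, the values of the 6 mRNAs in the block are not read here as their level in the cell. For mt-Atp8 no shared window was found, and chromosome 1 sequence outside the annotated copies was not read, so its low counts stay without a tested reason.

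**Figure D1:**
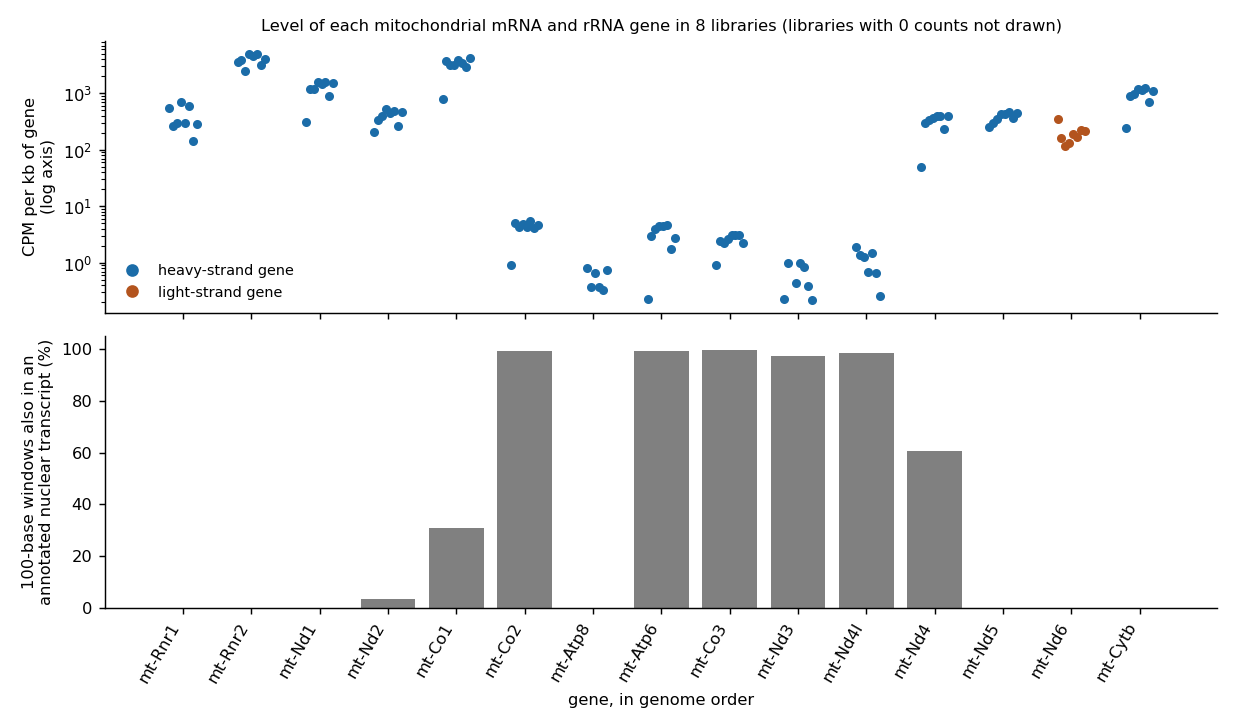
Upper panel, level of each mitochondrial mRNA and rRNA gene in CPM per kilobase (log axis), 1 point per library in the order of the 4 groups, blue for heavy-strand and brown for light-strand genes. Lower panel, percent of the gene's 100-base windows also found in an annotated nuclear transcript. The 5 genes with 97.6% or more of their windows shared, and mt-Atp8, lie far below the others.

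The rRNAs, which form the core of the small (mt-Rnr1) and large (mt-Rnr2) subunits of the mitochondrial ribosome, varied between libraries by different amounts. mt-Rnr2 (chrM:1094-2675) was the most counted mitochondrial gene in most libraries. In DHX35-dTAG cells, it had 5672 and 6163 CPM in DMSO and 4001 and 7776 in dTAG-13. GPATCH1-dTAG cells had 7138 and 7964 CPM in DMSO and 4949 and 6540 in dTAG-13. In GPATCH1-dTAG cells the DMSO libraries were both above the dTAG-13 libraries, while in DHX35-dTAG cells the groups overlapped. mt-Rnr1 (chrM:70-1024) had 529 and 250 CPM in DHX35-dTAG cells in DMSO and 290 and 671 in dTAG-13. It had 281 and 575 CPM in GPATCH1-dTAG cells in DMSO and 139 and 278 in dTAG-13. As a ratio, the replicates of mt-Rnr1 differed from each other by more than those of mt-Rnr2 in every group. For every 100 counts of mt-Rnr2 there were 2.81 to 8.62 of mt-Rnr1 in 7 libraries, and 9.32 in DHX35-dTAG DMSO replicate 1.

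Because rRNA had been removed from the samples, the mitochondrial rRNAs were compared with the residual nuclear rRNA. The mitochondrial share was taken of the counts without Gm23935 and CT010467.1, and the residual share was that of these genes in all counts. Residual rRNA was over 10% in 3 libraries and at most 4.23% in the other 5. Over the 8 libraries, the summed mt-Rnr1 and mt-Rnr2 share had a Pearson's r of 0.757 with residual rRNA (exact permutation test, two-sided, p = 0.0327, adjusted p = 0.0622 over the 4 relations computed) and a Spearman's rho of 0.571 (exact permutation p = 0.151). Without the 2 libraries farthest from the median of residual rRNA, which were replicate 2 of DHX35-dTAG cells in dTAG-13 and of GPATCH1-dTAG cells in DMSO, r was -0.446 (exact permutation p = 0.442). The relation thus rested on those libraries. Mitochondrial mRNAs had an r of 0.555 with residual rRNA (exact permutation p = 0.135, adjusted p = 0.135) and a rho of 0.714 (exact permutation p = 0.0576). Without DHX35-dTAG DMSO replicate 1, these were 0.698 (exact permutation p = 0.0815) and 0.857 (exact permutation p = 0.0238), and without the 2 farthest libraries 0.162 (exact permutation p = 0.719) and 0.314 (exact permutation p = 0.564).

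Each rRNA was also examined alone, a choice made after seeing the data. mt-Rnr1 had an r of 0.845 (exact permutation p = 0.0118, adjusted p = 0.0471) and a rho of 0.905 (exact permutation p = 0.00456). Without the same 2 libraries r was 0.224 (exact permutation p = 0.486) and rho 0.829 (exact permutation p = 0.0583), and without DHX35-dTAG DMSO replicate 1 r was 0.937 (exact permutation p = 0.00159). mt-Rnr2 alone had an r of 0.730 (exact permutation p = 0.0467, adjusted p = 0.0622), a rho of 0.571 and, without the 2 farthest libraries, an r of -0.481. The 2 libraries with most residual rRNA, 1 from each line and each treatment, had the highest shares of both mitochondrial rRNAs.

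**Figure D2:**
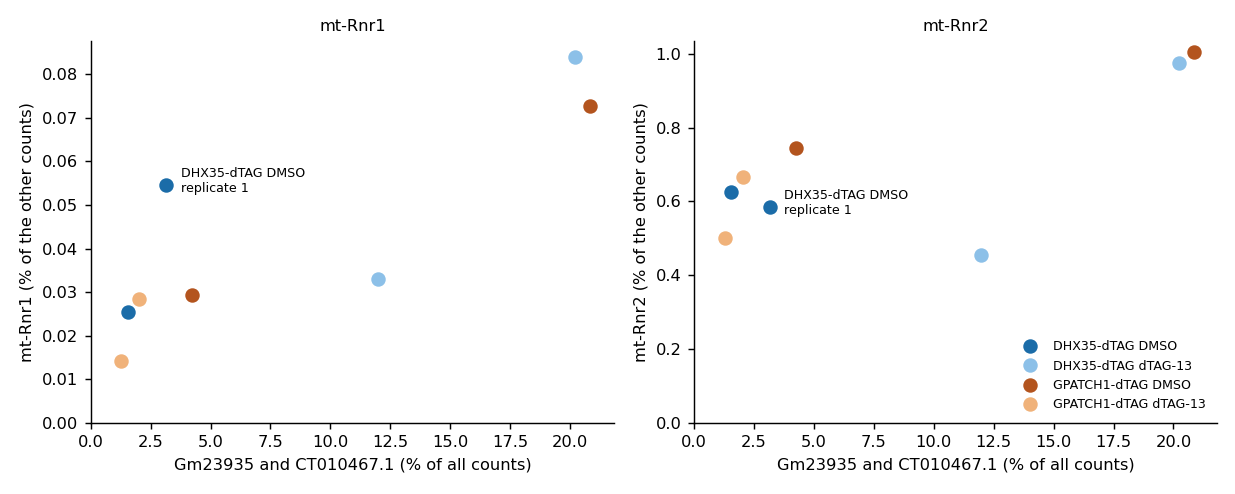
Share of mt-Rnr1 (left) and mt-Rnr2 (right), in percent of the counts without Gm23935 and CT010467.1, against the share of these 2 genes in all counts (percent), 1 point per library coloured by group. The 2 libraries beyond 20% on the horizontal axis are the highest in both panels.

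Within DHX35-dTAG DMSO replicate 1, the mitochondrial RNA classes stood at different places relative to the other 7 libraries. This library was singled out with its mitochondrial share already known, so the comparison is a description with no test. Mitochondrial mRNAs took 0.272% of its counts, against 0.758% to 1.13% in the others. The 12 heavy-strand mRNAs took 0.253%, against a median of 0.970% in the others, which was 3.83 times as much. mt-Nd6, the light-strand mRNA, took 0.0184%, against a median of 0.00872%, and was thus 2.11 times as high in that library. The rRNAs took 0.620%, inside the range of 0.429% to 0.854% in the others, as did the tRNAs with 0.00112% against 0.000825% to 0.00159%. Low heavy-strand mRNAs and a high mt-Nd6 were therefore found in the same library, whose mitochondrial rRNAs were within the range. Of all genes tested, 32.6% lay above all of the others in CPM in that library and 15.1% below. The strand setting of the counting is not given, and the strand of the mt-Nd6 counts was not tested.

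**Figure D3:**
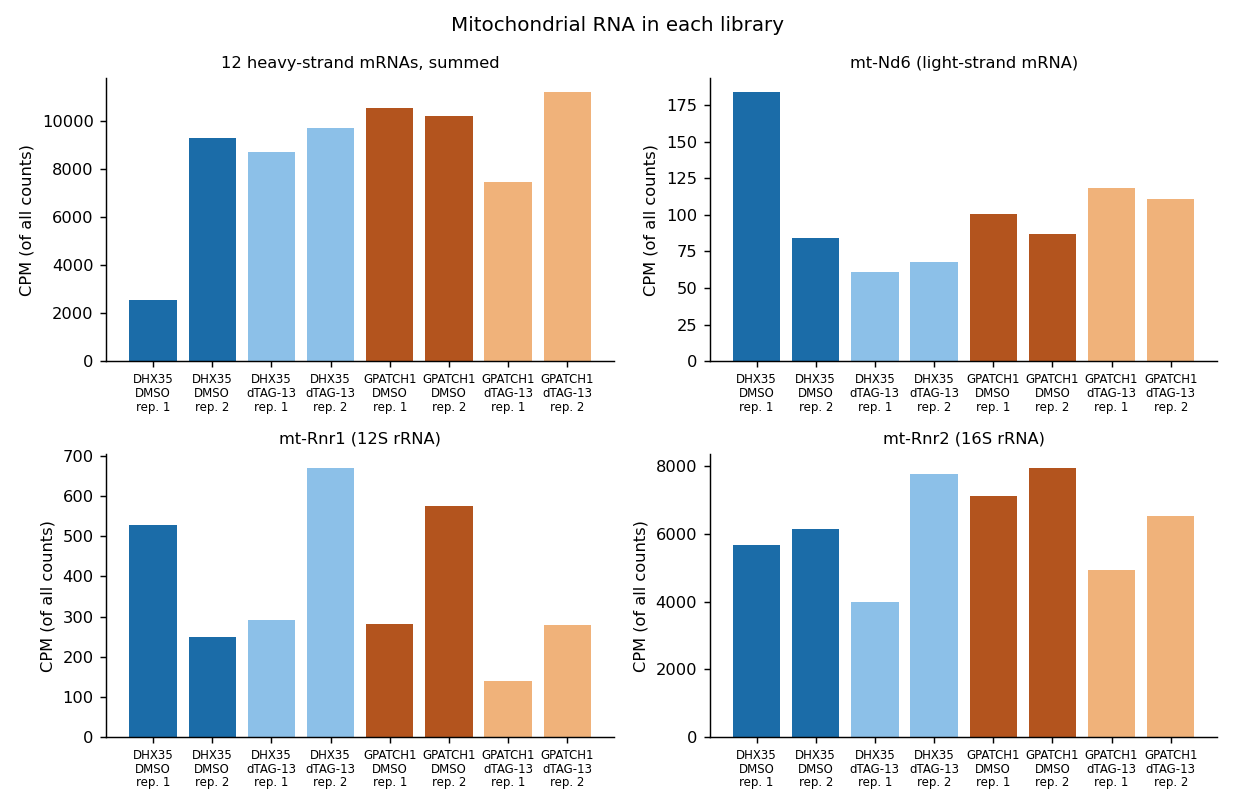
CPM of the summed heavy-strand mRNAs, mt-Nd6, mt-Rnr1 and mt-Rnr2 in each of the 8 libraries, 1 bar per library, blue for DHX35-dTAG and brown for GPATCH1-dTAG cells, dark for DMSO and light for dTAG-13. DHX35-dTAG DMSO replicate 1 has the lowest bar in the first panel and the highest for mt-Nd6.

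The mRNAs of complex I, the entry point for electrons from NADH, were low in this library where they had at least 10 counts on average, except mt-Nd6. mt-Nd1 (chrM:2751-3707) had 296 CPM there (exact 95% interval 287 to 306) and 868 to 1520 CPM in the other 7. mt-Nd2 (chrM:3914-4951) had 218 CPM, against 280 to 544. mt-Nd4 (chrM:10167-11544) had 67.9 CPM, against 327 to 558, and was the mRNA with more than 50 counts that lay farthest below the others, at a log2 ratio of -2.91 to their median. It lies partly in the block, with 60.8% of its 100-base windows shared, so part of its counts has the limit given there. mt-Nd5 (chrM:11742-13565) had 461 CPM, against 537 to 843, and was the least reduced of the heavy-strand mRNAs with a mean of at least 10 counts, at a log2 ratio of -0.77. mt-Nd6 (chrM:13552-14070, minus strand) had 184 CPM (exact 95% interval 177 to 192), against 61.2 to 118, a log2 ratio of 1.08. mt-Nd5 and mt-Nd6 overlap by 14 bases on opposite strands. The strand setting of the counting is not given in the sources used here, so reads in that overlap cannot be assigned. The same limit holds over the whole of mt-Nd6, since both strands are transcribed into long RNAs. Whether its counts include RNA of the opposite strand was not tested.

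The other respiratory genes were low as well. mt-Cytb (chrM:14145-15288), the only mitochondrial gene for complex III, had 281 CPM there and 808 to 1405 CPM in the other 7, a log2 ratio to their median of -2.19. mt-Co1 (chrM:5328-6872), the catalytic subunit of cytochrome c oxidase, had 1206 CPM, against 4488 to 6605, a log2 ratio of -2.15. The genes of the block were also lower, with 8 counts of mt-Co2 against 35 to 50, 9 of mt-Co3 against 21 to 36 and 2 of mt-Atp6, a subunit of the ATP synthase, against 18 to 44. mt-Atp8, mt-Nd3 and mt-Nd4l had at most 8 counts in any library, too few to place this one.

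Among the tRNAs, mt-Tm had 26 counts in this library and 8 to 19 in the others, and mt-Tw had 11 against 27 to 38. mt-Tq had 46 counts against 25 to 72 and mt-Tp had 38 against 24 to 51. mt-Tm and mt-Tw are both on the heavy strand and flank mt-Nd2, and in CPM the first lay above and the second below all other libraries.

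Taken by strand, 10 of the 16 genes with a mean of at least 10 counts lay below all other 7 libraries in CPM, against 15.1% of all genes tested. On the heavy strand 10 lay below all 7, 1 above and 2 within their range, and on the light strand 0, 1 and 2. With so few light-strand genes the strands cannot be compared. The 10 include mt-Co2, mt-Atp6 and mt-Co3 of the block. Above all 7 lay 2 genes, mt-Nd6 and mt-Tm, against 32.6% of all genes tested. mt-Rnr1, mt-Rnr2, mt-Tq and mt-Tp lay within the range. The median log2 ratio of CPM to the other libraries was 0.07 over the 16362 tested genes for which it could be formed. With CPM scaled by TMM effective library sizes, a setting chosen after seeing the data, the same counts of 10, 2 and 4 were found, beside 29.5% of all genes below and 30.3% above.

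**Figure D4:**
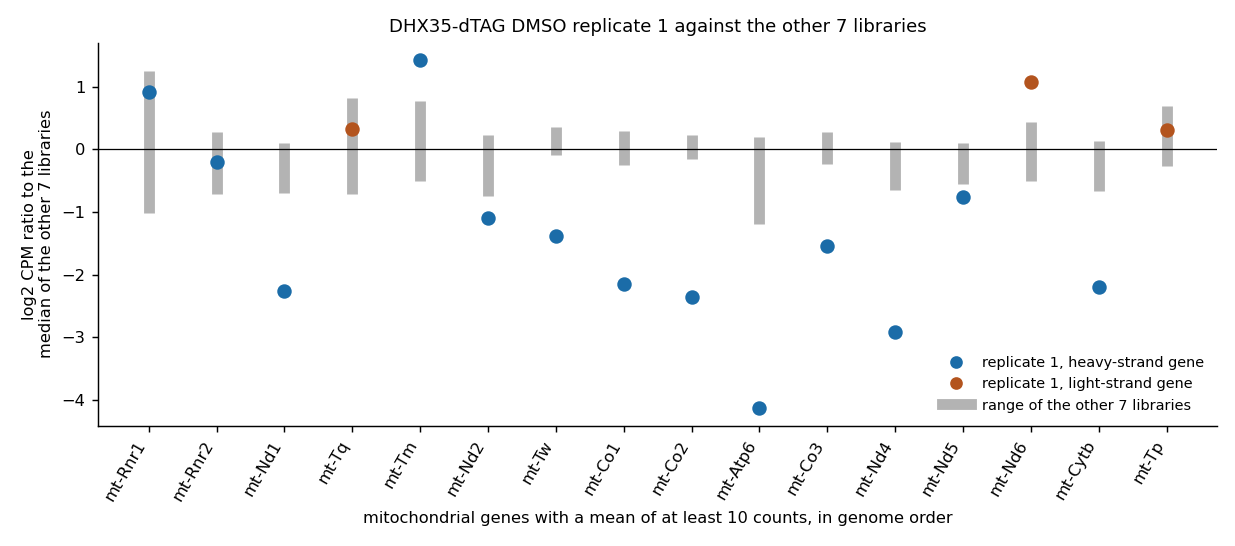
Log2 ratio of CPM in DHX35-dTAG DMSO replicate 1 to the median of the other 7 libraries for the 16 genes with a mean of at least 10 counts, in genome order, blue for heavy-strand and brown for light-strand genes. Grey bars give the range of the other 7 libraries. Every heavy-strand mRNA lies below its bar, and mt-Nd6 lies above.

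The proportions among the mRNAs also differed, which no scaling of the library can change. mt-Nd6 made up 6.77% of mitochondrial mRNA counts in DHX35-dTAG DMSO replicate 1 and 0.692% to 1.56% in the others. mt-Nd5 made up 17.0%, against 5.73% to 8.98%, and mt-Nd2 8.03%, against 3.69% to 5.57%. mt-Co1 made up 44.4%, against 51.1% to 62.3%, and mt-Nd4 2.50%, against 4.31% to 5.36%. For every 100 counts of mt-Nd1, the neighbouring mt-Nd2 had 73.6 counts, against a median of 33.0. The heavy-strand mRNAs were thus not lowered by a common factor in this library.

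Its replicate partner lay nearer to the rest. In DHX35-dTAG DMSO replicate 2, mt-Nd1 had 1125 CPM, mt-Nd4 407, mt-Cytb 1017 and mt-Co1 5838, each inside the range of the 6 libraries of the other groups. mt-Nd5, at 537 CPM, was the lowest of the libraries other than replicate 1, where it was 461. Of the 8 nuclear copies with a mean CPM of at least 1, 6 were also lowest in replicate 1. Gm13340 on chromosome 2, which is 97.6% identical to mt-Co1 over its whole length, had 56 counts in DHX35-dTAG DMSO replicate 1 and 335 to 501 in the others. Gm28438 and Gm28439 were not, at 2.90 CPM against 1.25 to 3.57 and at 1.18 CPM against 1.07 to 2.35. All 15 copies together took 0.00137% of the counts there and 0.00413% to 0.00618% in the others. Copies share sequence with the mitochondrial genes and their counts are not independent of them.

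The effect of dTAG-13 on mitochondrial transcripts was then tested in each line. Of the 37 genes, 16 passed edgeR's expression filter, namely 10 mRNAs, both rRNAs and 4 tRNAs. The 10 mRNAs include mt-Co2, mt-Atp6 and mt-Co3 of the block. Their differences below are differences in counts that cannot be assigned to the mitochondrial gene or its copy. Medians are therefore also given over the 7 mRNAs not wholly inside the block, a choice made after seeing the data. These 7 are called outside the block below, although mt-Co1 and mt-Nd4 lie partly in it. Of their 100-base windows 30.8% and 60.8% were shared, so these medians are not free of the same limit. None of the 16 was called on DHX35 depletion with edgeR's quasi-likelihood test, Benjamini-Hochberg adjusted, beside 0% of the 16371 genes tested. At an unadjusted p under 0.05 there were 6 of the 16, beside 5.39% of all genes. DESeq2 called 0 of the 16, beside 0.00611% of all genes. The median log2 difference (dTAG-13 minus DMSO) of the 10 mRNAs was 0.92, beside -0.01 over all genes tested, and 9 of the 10 were positive. Over the 7 outside the block it was 1.01, with 6 positive. mt-Nd5 had a log2 difference of 0.76 (standard error 0.19), mt-Nd2 of 1.01 (standard error 0.31), mt-Nd1 of 1.18 (standard error 0.50), mt-Cytb of 1.19 (standard error 0.48) and mt-Atp6 of 1.59 (standard error 0.63). mt-Nd6 alone of the mRNAs was negative, at -0.82 (standard error 0.30). Each of these 6 had an adjusted p of 0.71. Residual nuclear rRNA was also higher in dTAG-13 in this line, at 11.98% and 20.2% of the counts against 3.15% and 1.54% in DMSO, and its part in these differences was not tested.

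The size of these values depended on DHX35-dTAG DMSO replicate 1. Without it, the median of the 10 mRNAs was 0.53 and that of the 7 outside the block 0.54, mt-Nd5 had a log2 difference of 0.68 (standard error 0.16), mt-Cytb 0.55, mt-Co1 0.03 and mt-Nd6 -0.12, and 0 of the 16 genes were called, beside 0.0122% of all genes tested. A DMSO group of 1 library was then assumed to vary like the other groups. Without replicate 2 instead, 12 of the 16 were called and the median was 2.31, beside 29.2% of all genes tested.

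On GPATCH1 depletion, the median of the 10 mRNAs was -0.44, beside 0.00 over all genes, and 9 of the 10 were negative. Over the 7 outside the block it was -0.47, with 6 negative. Residual nuclear rRNA was lower in dTAG-13 in this line, at 1.27% and 2.02% against 4.23% and 20.9% in DMSO, so that the signs of the mRNA medians in both lines ran with it, and its part was not tested. The median of the 10 was -0.19 without dTAG-13 replicate 1 of this line, -0.73 without dTAG-13 replicate 2 and -0.28 without DMSO replicate 2. edgeR's test called 0 of the 16 genes after adjustment, beside 0% of all genes tested, and 0 at an unadjusted p under 0.05, beside 2.97%. DESeq2 called 0, beside 0% of all genes, and edgeR without DHX35-dTAG DMSO replicate 1 called 0, beside 0.312%. mt-Rnr1 had a log2 difference of -1.27 (standard error 0.59), mt-Atp6 of -1.17 (standard error 0.59), mt-Rnr2 of -0.58 (standard error 0.32) and mt-Cytb of -0.56 (standard error 0.47). These 4 fell past the adjusted threshold when only the 4 libraries of GPATCH1-dTAG cells were fitted, beside 0.8% of all genes tested. The 4 include both rRNAs and mt-Atp6 of the block. mt-Rnr1 had an r of 0.845 with residual nuclear rRNA over the 8 libraries (above), and of 0.224 without the 2 farthest. This relation was examined after seeing the data. mt-Cytb had 1292 and 1405 CPM in DMSO and 808 and 1281 in dTAG-13, so that the groups did not overlap but the dTAG-13 replicates were far apart. mt-Nd6 had 100.9 and 87.2 CPM in DMSO and 118 and 111 in dTAG-13, a log2 difference of 0.11 (standard error 0.30).

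The difference between the responses (GPATCH1 depletion minus DHX35 depletion) was tested directly. edgeR's quasi-likelihood test, Benjamini-Hochberg adjusted, called 0 of the 16 genes, beside 0% of all genes tested. At an unadjusted p under 0.05 it gave 5, beside 3.91% of all genes, and DESeq2 called 1, mt-Nd5, beside 0.055%. The median over the 10 mRNAs was -1.36, and -1.55 over the 7 outside the block. The changes in residual nuclear rRNA also had opposite signs in the 2 lines. Without DHX35-dTAG DMSO replicate 1 the median of the 10 was -1.001, and 0 of the 16 were called, beside 0.055%. Without replicate 2 instead, 11 were called, beside 21.7%. mt-Nd5 differed by -1.08 (standard error 0.26) and mt-Nd2 by -1.55 (standard error 0.43), both with an adjusted p of 0.86. In a model of line and treatment, the dTAG-13 effect over both lines had a median of 0.27 over the 7 mRNAs outside the block and of 0.23 over the 10 mRNAs, which became -0.12 without DHX35-dTAG DMSO replicate 1 and 0.02 without replicate 2 of that line in dTAG-13. It was 0.45 without GPATCH1-dTAG DMSO replicate 2 and 0.51 without GPATCH1-dTAG dTAG-13 replicate 1. With all 8 libraries in this model, edgeR called 0 of the 16 genes after adjustment, beside 0% of all genes, and 0 at an unadjusted p under 0.05, beside 3.59%. DESeq2 called 0, beside 0.0244%, and edgeR without DHX35-dTAG DMSO replicate 1 called 0, beside 0.0489%.

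The summed classes were also compared by treatment, over both lines. Mitochondrial mRNAs took 0.935% ± 0.159 of the counts in dTAG-13 and 0.825% ± 0.373 in DMSO (SD, n = 4 libraries each), a difference of 0.1101 percentage points (exact permutation test, two-sided, p = 0.743, where 4 against 4 libraries can reach 0.0286). The rRNAs took 0.616% ± 0.185 in dTAG-13 and 0.714% ± 0.107 in DMSO (SD, n = 4 each, exact permutation p = 0.4). The tRNAs took 0.00109% ± 0.000336 and 0.00108% ± 0.000227 (SD, n = 4 each, exact permutation p = 0.971). Adjusted over the 3 classes, each exact permutation p was 0.971. Without DHX35-dTAG DMSO replicate 1, the mRNA difference was -0.0745 percentage points. These differences were smaller than the spread between libraries of the same treatment. Within a line, 2 against 2 libraries cannot pass such a test.

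The lines were also compared with each other, GPATCH1-dTAG minus DHX35-dTAG, a contrast in which the tag and the clone cannot be told apart. In DMSO, edgeR's quasi-likelihood test, Benjamini-Hochberg adjusted, called 0 of the 16 genes, beside 0.0916% of all genes tested. At an unadjusted p under 0.05 there were 7, beside 12.9% of all genes, and DESeq2 called 1, mt-Nd5, beside 0.281%. The median over the 10 mRNAs was 1.03, beside -0.01 over all genes, and 0.98 over the 7 outside the block. Residual nuclear rRNA was 3.15% and 1.54% in DHX35-dTAG cells and 4.23% and 20.9% in GPATCH1-dTAG cells in DMSO, so that these groups did not overlap either. mt-Nd5 had 461 and 537 CPM in DHX35-dTAG cells and 789 and 843 in GPATCH1-dTAG cells. The groups did not overlap, and the log2 difference was 0.92 (standard error 0.19, adjusted p = 0.20). Without DHX35-dTAG DMSO replicate 1, the median was 0.62, and mt-Nd5 passed the threshold at 0.83 on the log2 scale (standard error 0.16, adjusted p = 0.0161, edgeR), beside 0.733% of all genes tested. Without replicate 2 instead, 11 of the 16 were called, beside 34.7%.

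In dTAG-13, the comparison of the lines does not use the DMSO libraries for its means. The median over the 10 mRNAs was -0.33, and -0.37 over the 7 outside the block. That of the 10 was -0.10 without DHX35-dTAG dTAG-13 replicate 2, -0.13 without GPATCH1-dTAG dTAG-13 replicate 1 and -0.60 without GPATCH1-dTAG dTAG-13 replicate 2. With all 8 libraries, edgeR's test called 0 of the 16 genes after adjustment, beside 0.0916% of all genes, and 1, mt-Rnr1, at an unadjusted p under 0.05, beside 8.47%. DESeq2 called 0, beside 0.287%. mt-Nd6 had 61.2 and 67.6 CPM in DHX35-dTAG cells and 118 and 111 in GPATCH1-dTAG cells, so that the groups lay far apart, while mt-Co1 had 4894 and 4996 against 4488 and 6605. The log2 difference of mt-Nd6 was 0.60 (standard error 0.30, adjusted p = 0.66). When DHX35-dTAG DMSO replicate 1 was left out, the difference was 0.60 with a standard error of 0.08 (adjusted p = 0.000267, edgeR's quasi-likelihood test). mt-Rnr1 was then called at -1.46 (standard error 0.37, adjusted p = 0.0329, edgeR) and so were the counts of mt-Atp6 at -1.14 (standard error 0.29, adjusted p = 0.0331, edgeR), beside 4.01% of all genes tested. Residual nuclear rRNA separated the lines in dTAG-13 in the same direction as mt-Rnr1. It was 11.98% and 20.2% in DHX35-dTAG cells and 1.27% and 2.02% in GPATCH1-dTAG cells. Without that DMSO library mt-Rnr1 had an r of 0.937 with residual rRNA (exact permutation p = 0.00159, n = 7 libraries). This relation was examined after seeing the data, and its libraries include the 4 compared here. Over the 8 libraries without the 2 farthest in residual rRNA, r was 0.224 (exact permutation p = 0.486). The part of residual rRNA in the line difference was not tested. mt-Atp6 lies in the block, at 2 to 44 counts per library, and its call cannot be read as a difference in the mitochondrial transcript. The same 3 genes were called when only the 4 dTAG-13 libraries were fitted, beside 2.22% of all genes. Between the fits with and without that library, these log2 differences hardly moved and their standard errors were smaller. That library was singled out with its mitochondrial share known, and its mt-Nd6 was the highest of all. Leaving it out therefore lowers the spread estimated for mt-Nd6, and the calls without it depend on that choice.

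**Figure D5:**
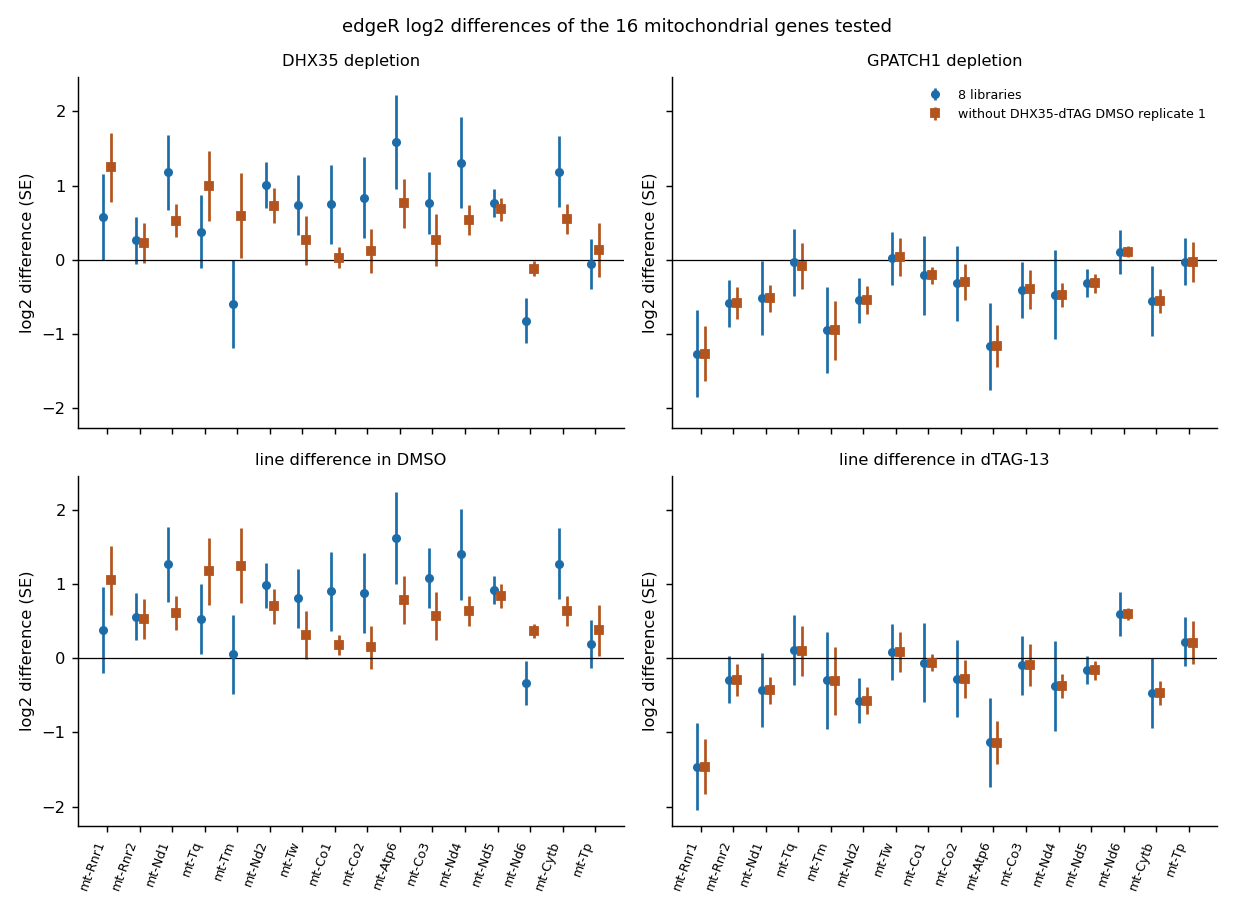
Log2 differences of the 16 genes tested, with standard errors, in 4 comparisons, from edgeR with all 8 libraries (blue circles) and without DHX35-dTAG DMSO replicate 1 (brown squares). The line differences are GPATCH1-dTAG minus DHX35-dTAG. Leaving out the library moves the values of the 2 left panels, whose DMSO group it belongs to, and in the 2 right panels it shortens most error bars.

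The expression filter decided many of these calls. With every gene of at least 1 count kept, 29 mitochondrial genes were tested. In that fit, DHX35 depletion gave 10 called mitochondrial genes (9 higher and mt-Nd6 lower), beside 1.06% of all genes tested, and GPATCH1 depletion gave 6, all lower, beside 0.0643%. The response difference gave 10, beside 0.429%, the effect across lines 6, beside 0.245%, and the line difference 10 in DMSO, beside 3.02%, and 5 in dTAG-13, beside 0.484%. Without DHX35-dTAG DMSO replicate 1 and with the filter, the genes of the 16 at an unadjusted p under 0.05 were 8 on DHX35 depletion, beside 4.43% of all genes, and 9 on GPATCH1 depletion, beside 8.52%. They were 9 for the response difference, beside 5.17%, and 0 for the effect across lines, beside 7.31%. For the line difference they were 10 in DMSO, beside 10.1%, and 7 in dTAG-13, beside 18.5%. With the replicate number as a block, mt-Nd2 was called for the response difference, beside 0.0122%, and mt-Nd2 and mt-Nd5 for the line difference in DMSO, beside 0.0977%.

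Nuclear genes that act on the mitochondrial genome or its RNA, for example by copying, cutting, modifying, stabilising or degrading RNA, were taken from a list of 55. All of them passed the filter. edgeR's quasi-likelihood test, Benjamini-Hochberg adjusted, called 0 of the 55 in each of the 6 comparisons, beside the shares of all genes given above. At an unadjusted p under 0.05 DHX35 depletion gave 2 of 55, GPATCH1 depletion 0 and the response difference 0. The effect across lines gave 2, Fastkd5 and Tbrg4, and the line difference gave 3 in DMSO, Fastkd3, Pus1 and Trmu, and 6 in dTAG-13. As shares of the 55 these stand beside 5.39%, 2.97%, 3.91%, 3.59%, 12.9% and 8.47% of all genes tested, in the same order. Their median log2 difference was 0.004 after depletion of DHX35, 0.03 after that of GPATCH1 and -0.001 for the lines in DMSO. On DHX35 depletion, Polrmt, the mitochondrial RNA polymerase, had a log2 difference of -0.01 (standard error 0.09), Tfb2m, which opens the promoter for it, of 0.04 (standard error 0.12), and Tfam, which packs the DNA and activates transcription, of -0.29 (standard error 0.17). Elac2, which cuts the end of the tRNAs, had -0.01 (standard error 0.09). The 2 genes of the list at an unadjusted p under 0.05 in this comparison, named after their values were seen, were Prorp, the nuclease that cuts the other end of the tRNAs, at 0.42 (standard error 0.17, unadjusted p = 0.0393, adjusted p = 0.71, edgeR), and Polg2, the accessory subunit of the DNA polymerase, at -0.48 (standard error 0.20, unadjusted p = 0.0419, adjusted p = 0.71, edgeR). Lrpprc and Slirp, which form a complex that stabilises mitochondrial mRNAs, had -0.12 (standard error 0.09) and 0.46 (standard error 0.27). Mtpap, the poly(A) polymerase, had 0.12 (standard error 0.15), and Supv3l1 and Pnpt1, the helicase and nuclease that degrade mitochondrial RNA, had -0.01 (standard error 0.08) and 0.23 (standard error 0.20). On GPATCH1 depletion, Prorp and Polg2 had log2 differences of -0.04 (standard error 0.17) and -0.01 (standard error 0.20), and the other 9 genes just described had differences between 0.03 and 0.15.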

How the data were processed

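Total RNA, to which the authors added a human DLD-1 spike-in, was depleted of rRNA, made into stranded libraries and sequenced in pairs on a DNBSEQ-T7. Reads were quality-checked with FastQC 0.11.9, trimmed with Trim Galore 0.6.6 and aligned with STAR 2.7.5c to mm10 and hg19, and the submitters' processing notes also list DESeq2 1.26.0. Each deposited table holds unnormalized counts of 1 library by gene symbol. The counting program, its annotation, its strand setting and its treatment of reads with several matches are not given in the sources used here.

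Samples were grouped by their labels. The main test was the quasi-likelihood test of edgeR 4.0.16 under R 4.3.3 (glmQLFit with glmQLFTest, TMM, filterByExpr on the 4 groups, 1 term per group, or line and treatment, all 8 libraries, Benjamini-Hochberg over 16371 genes, threshold 0.05). A standard error is the log2 difference over the root of F. DESeq2 1.42.0 was an alternative. Shares and correlations were tested by exact permutation (SciPy 1.17.1). Positions, lengths and sequences came from GENCODE M21 (GRCm38, the build of the alignment). Nuclear copies were found with BLAST+ 2.17.0 (expect 1e-5). The named genes were all mitochondrial mRNAs and rRNAs, tRNAs with a mean of at least 10 counts, copies described in the text and 9 of a list of 55 nuclear genes. Further genes of that list in the text (7) were picked by their p-values. The members and lists were chosen with earlier results of these data known. Replicates of a group were not duplicates of each other, with a chi-square per gene between 5.49 and 139. Replicate numbers did not pair the samples (correlations of deviations 0.0372 to 0.23, not all over 0.1). The edgeR fit was tested on simulated data, where it recovered 123 of 200 genes changed 2-fold on simulated DHX35 depletion among 16371 genes, with 10 other calls, and made 2 calls in a comparison with no change.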

Additional observations from a re-analysis of the deposited data

Results flagged for a closer look

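In 4 sums over the 8 libraries, DHX35-dTAG DMSO replicate 1 was farther from its nearest neighbour than Dixon's 95% limit. Chance flags about 1 in 20 groups chosen blindly, but this library was examined because its mitochondrial share was known to be low, so the flags describe that choice and support nothing. Mitochondrial mRNAs took 0.272% of its counts, the lowest of the 8, with a gap of 0.565 of the whole range. The heavy-strand mRNAs took 0.253%, also the lowest. mt-Nd6, the light-strand mRNA, took 0.0184%, the highest, with a gap of 0.537. The nuclear copies of mitochondrial genes took 0.00137%, the lowest. The 4 sums are not independent, since they come from the same library and the copies share sequence with the mitochondrial genes. The sum over all mitochondrial genes was not past the limit, with a gap of 0.379 of the whole range, and neither were the rRNAs or the tRNAs. The cause was not tested.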

How the results depend on the processing

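Over all alternatives, 188 values stayed the same, 22 moved, 6 reversed and 1 became weaker. A test stayed the same if it kept its direction and its side of the threshold. A median did so if it moved by less than the spread between replicates. A number of called genes did so if it did not change, and was otherwise listed as moved, with no measure of spread. The cause was not tested unless stated. DESeq2's size factors in edgeR, totals without the 2 highest genes and at least 10 counts in every library changed no count of calls. Without an expression filter, DHX35 depletion gave 10 called mitochondrial genes, GPATCH1 depletion 6, the response difference 10, the effect across lines 6 and the line differences 10 in DMSO and 5 in dTAG-13. With only the libraries compared, 4 were called on GPATCH1 depletion and 3 between the lines in dTAG-13. DESeq2 called 1 for the difference between the responses and 1 between the lines in DMSO. The fit with the replicate block called 1 and 2 there, mt-Nd2 and mt-Nd2 with mt-Nd5, and changed no other call, although the numbers do not pair the samples.

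With each library left out in turn, the genes called ranged from 0 to 12 (DHX35 depletion), 0 to 0 (GPATCH1 depletion), 0 to 11 (response difference), 0 to 0 (effect across lines), 0 to 11 (line difference in DMSO) and 0 to 3 (line difference in dTAG-13). The 12, 11 and 11 came without DHX35-dTAG DMSO replicate 2, which left replicate 1 as that group, and the 3 came without either of these libraries. Medians over the mRNAs ranged from 0.53 to 2.31, -0.73 to -0.19, -2.64 to -1.001, -0.12 to 0.51, 0.62 to 2.43 and -0.60 to -0.10 in the same order. The -0.73 came without GPATCH1-dTAG dTAG-13 replicate 2. Differences of shares ranged from -0.0745 to 0.19 percentage points for mRNAs, -0.174 to -0.0358 for rRNAs and -0.000158 to 0.000106 for tRNAs. The mRNA difference reversed without DHX35-dTAG DMSO replicate 1. The tRNA difference reversed to -7.38e-05 without replicate 2 of DHX35-dTAG DMSO, to -1.69e-05 without replicate 2 of GPATCH1-dTAG DMSO and to -0.000158 without replicate 2 of GPATCH1-dTAG dTAG-13. The correlation of mitochondrial with residual rRNA was -0.446 without the 2 farthest libraries and 0.748 without DHX35-dTAG DMSO replicate 1 (exact permutation p = 0.0601). Medians over the 7 mRNAs not wholly inside the chromosome 1 block, an alternative chosen after seeing the data, had the same sign as those over the 10 in every comparison. Of these 7, mt-Co1 and mt-Nd4 lie partly in the block. At this depth 4 of the 22 tRNAs had a mean of at least 10 counts, and 16 of the 37 mitochondrial genes were tested after the filter. mt-Atp6, mt-Co2 and mt-Co3 of the block were tested and called in some of these fits, on at most 50 counts per library.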
